A study of Mus musculus with 9 samples.

Results

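The 5 simple keratins Krt7, Krt8, Krt18, Krt19 and Krt20 were followed on 9 mouse bladder arrays. They were taken by symbol from the annotation of the array, out of 17097 genes with a probe set of their own, and all 5 lay among the 11969 genes above the expression filter. Each array holds RNA from whole bladder of female C57BL/6J mice, and the deposited values are log2 RMA intensities, a background-corrected and normalized probe brightness on which 1 unit is a doubling of signal. In experiment 1 (5 arrays) mouse bladders had been preconditioned with poly-L-lysine and seeded on day 0 with MB49, a mouse bladder carcinoma line. They then received PBS (sham tumour) or alpha1-oleate, a peptide-oleate complex, at 1.7, 8.5 or 17 mM by instillation on 5 days (day 3, then every other day to day 11), with tissue taken on day 12, beside a healthy bladder given PBS. Experiment 2 (4 arrays) held a healthy PBS bladder, a sham tumour bladder, and tumour-free bladders given 17 mM alpha1-oleate and sampled after 24 h or 7 d. Healthy PBS and sham tumour had 2 arrays each, 1 per experiment, and the 5 other groups had 1 array each. The labels do not name separate animals or pools behind the arrays, so a p-value here reflects no more than array-to-array spread, which may be technical, and groups of 1 array borrow that spread from the PBS groups.

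Keratins form intermediate filaments as obligate pairs of an acidic type I protein (here Krt18, Krt19 and Krt20) with a basic type II protein (here Krt7 and Krt8). Simple epithelia carry the pair of Krt8 and Krt18, which is the first keratin pair made in the embryo. In the urothelium Krt7, Krt8, Krt18 and Krt19 are made through intermediate and umbrella cells, while Krt20 marks the umbrella cells that face the lumen and bear the uroplakin plaque. Hepatocytes also contain Krt8 and Krt18, and bile ducts, kidney tubules and mesothelium hold further simple keratins.

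Krt7, Krt8 and Krt18 lie on chromosome 15, where Krt18 sits beside its partner Krt8 among the type II genes, and Krt19 and Krt20 lie on chromosome 11 with the other type I genes. Promoter sequences (RefSeq, GRCm38.p6, 250 bases before to 50 after the start) were matched for 4 of the 5 genes and are shown because these genes differed widely in how far they fell in tumours. Krt7 is at chr15:101412153-101412452 on the plus strand, Krt8 at chr15:102004293-102004592 on the minus strand, Krt18 at chr15:102027966-102028265 on the plus strand and Krt20 at chr11:99438104-99438403 on the minus strand. Capitals mark AGGTCA, a core element bound by nuclear receptors such as the product of Pparg.
Krt7: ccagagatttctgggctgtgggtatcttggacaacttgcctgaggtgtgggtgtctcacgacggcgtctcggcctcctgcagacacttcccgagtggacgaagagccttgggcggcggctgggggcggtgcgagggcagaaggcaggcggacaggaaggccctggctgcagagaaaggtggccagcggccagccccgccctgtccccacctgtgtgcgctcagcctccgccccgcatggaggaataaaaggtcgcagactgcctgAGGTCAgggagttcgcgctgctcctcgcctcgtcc
Krt8: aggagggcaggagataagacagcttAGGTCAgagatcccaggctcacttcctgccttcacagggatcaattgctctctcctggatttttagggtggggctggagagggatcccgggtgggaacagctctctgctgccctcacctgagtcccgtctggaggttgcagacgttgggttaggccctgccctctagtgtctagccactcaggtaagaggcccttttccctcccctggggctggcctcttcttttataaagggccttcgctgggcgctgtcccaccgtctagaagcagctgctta
Krt18: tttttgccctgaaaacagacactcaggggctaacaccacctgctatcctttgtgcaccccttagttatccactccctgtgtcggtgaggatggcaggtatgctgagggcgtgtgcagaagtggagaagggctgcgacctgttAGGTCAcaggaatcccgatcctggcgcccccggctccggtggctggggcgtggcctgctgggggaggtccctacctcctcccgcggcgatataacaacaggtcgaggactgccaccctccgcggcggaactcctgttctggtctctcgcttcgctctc
Krt20: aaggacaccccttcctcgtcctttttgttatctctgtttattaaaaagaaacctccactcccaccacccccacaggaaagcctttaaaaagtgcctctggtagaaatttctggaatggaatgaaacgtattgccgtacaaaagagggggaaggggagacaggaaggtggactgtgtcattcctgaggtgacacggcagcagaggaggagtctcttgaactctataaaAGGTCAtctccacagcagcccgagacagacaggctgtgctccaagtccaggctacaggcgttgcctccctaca

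Each of the 4 promoters held AGGTCA 1 time on the sense strand, starting at base 16 after the start in Krt7 and at -225 in Krt8, -108 in Krt18 and -23 in Krt20. The letters occur on either strand in 16.3% of the 32851 promoters in the table. Krt8, which did not pass the test in tumours, held it as did Krt7, Krt18 and Krt20, which fell. In Krt20 it directly follows TATAAA without overlap. The core promoter motif TATAAA, on either strand, were found in Krt8 and Krt20 (13.6% of all promoters), where the 2 matches of Krt8 overlap each other on opposite strands. The GC box GGGCGG was found 4 times in Krt7 and in none of the other 3 (35.7% of all promoters), and AGATAA, which GATA factors bind, 1 time each in Krt8 and Krt20 (11.2%). The FOXA-type motif TGTTTAC, the AP-1-type motif TGANTCA and the GRHL-type motif AACCGGTT had no match in these windows (3.65%, 7.81% and 0.146% of all promoters).

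The median of an array was 4.42 to 4.45 log2 in the first experiment and 4.20 to 4.24 in the second, so differences of the keratins are taken within an experiment, and levels listed across both carry this offset. The tissue label held for urothelium, since on both healthy PBS arrays the uroplakins lay between 10.71 and 12.31 log2. The array labelled healthy, 17 mM, 24 h stood apart from the other tumour-free arrays. On it the proliferation marker Mki67 read 6.83 against 3.41 on the healthy PBS array and 9.25 on the sham tumour array of experiment 2. The neutrophil gene S100a8 read 7.07 against 2.97 and 9.21. Over 1291 genes that differed at least 4-fold between those PBS arrays its median position was 26.2% of the way from healthy to sham tumour, while the 7 d array was at 2.91%. It is called by its label below, and each comparison that rests on it is named.

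Among the 5 keratins the sham tumour bladders had lost most of the signal of Krt7, Krt19 and Krt20, a smaller share of that of Krt18, and Krt8 did not pass the test. By limma's moderated test with Benjamini-Hochberg adjustment over all 11969 genes, 4 of 5 members fell and none rose, beside 57.2% of all genes called (28.6% lower and 28.6% higher). The median log2 difference of the members was -2.98, against -0.005 over all genes tested. In bulk tissue fewer cells of a type and less RNA per cell cannot be told apart. The tumour bladders were also seeded with MB49 carcinoma cells, and the part of these cells in the signal of Krt8, Krt18 or any other keratin was not tested.

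Krt20, the umbrella cell keratin, read 9.50 log2 in healthy and 5.93 in sham tumour bladder in experiment 1, and 9.23 and 5.15 in experiment 2. It fell by 3.83 (log2 difference, SE 0.17, adjusted p = 0.00245), and the sham tumours retained 8.42% and 5.91% of the healthy signal of their experiment. The sham tumour was lower in both experiments, and 0.6% of genes had a lower difference.

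Krt7, the type II keratin of ductal and glandular epithelia, read 12.32 and 9.55 log2 in healthy and sham tumour of experiment 1, and 11.99 and 8.45 in experiment 2. It fell by 3.16 (SE 0.23, adjusted p = 0.00396), leaving 14.7% and 8.60% of the healthy signal. Krt19, the smallest type I keratin, which lacks the usual tail domain, read 11.78 and 9.14 in experiment 1 and 11.16 and 7.85 in experiment 2. It fell by 2.98 (SE 0.21, adjusted p = 0.00371), leaving 16.0% and 10.1%. For both genes the sham tumour array lay below the healthy array in each experiment.

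Krt8 and Krt18 stayed near the top of the scale in every group, where the highest value of any probe set was 13.06 log2 in experiment 1 and 12.88 in experiment 2. On the healthy PBS arrays Krt7 read higher than either, at 12.32 and 11.99 log2. Krt18 read 12.10 and 11.46 log2 in healthy and sham tumour of experiment 1 and 11.71 and 11.03 in experiment 2. Its log2 difference of -0.66 (SE 0.09, 95% interval -0.93 to -0.39, adjusted p = 0.0111) passed the test and left 64.2% and 62.4% of the healthy signal. Krt18 was no longer called without the experiment block, where its adjusted p was 0.315, nor in any of the fits without the block that left out 1 PBS array. Krt8 read 12.00 and 11.75 in experiment 1 and 11.63 and 11.18 in experiment 2. Its difference was -0.35 (SE 0.10, 95% interval -0.67 to -0.03, adjusted p = 0.0636), so it did not pass, although the tumour value was lower in both experiments. The part of the nearness to the top of the scale in these small differences was not tested.

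The 95% intervals of Krt7 (-3.86 to -2.45), Krt19 (-3.60 to -2.35) and Krt20 (-4.33 to -3.32) overlap each other and do not meet those of Krt8 and Krt18. Krt8 was read by 2 probe sets, and the one used carries the maker's suffix for probes that may also match other transcripts. RefSeq lists a Krt8 pseudogene, Krt8-ps, and its share of the signal was not tested. The other Krt8 probe set read 12.05 and 11.72 log2 in healthy and sham tumour of experiment 1 and 11.41 and 11.09 in experiment 2, a difference of -0.33 (adjusted p = 0.0659 with every probe set tested).

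**Figure D1:**
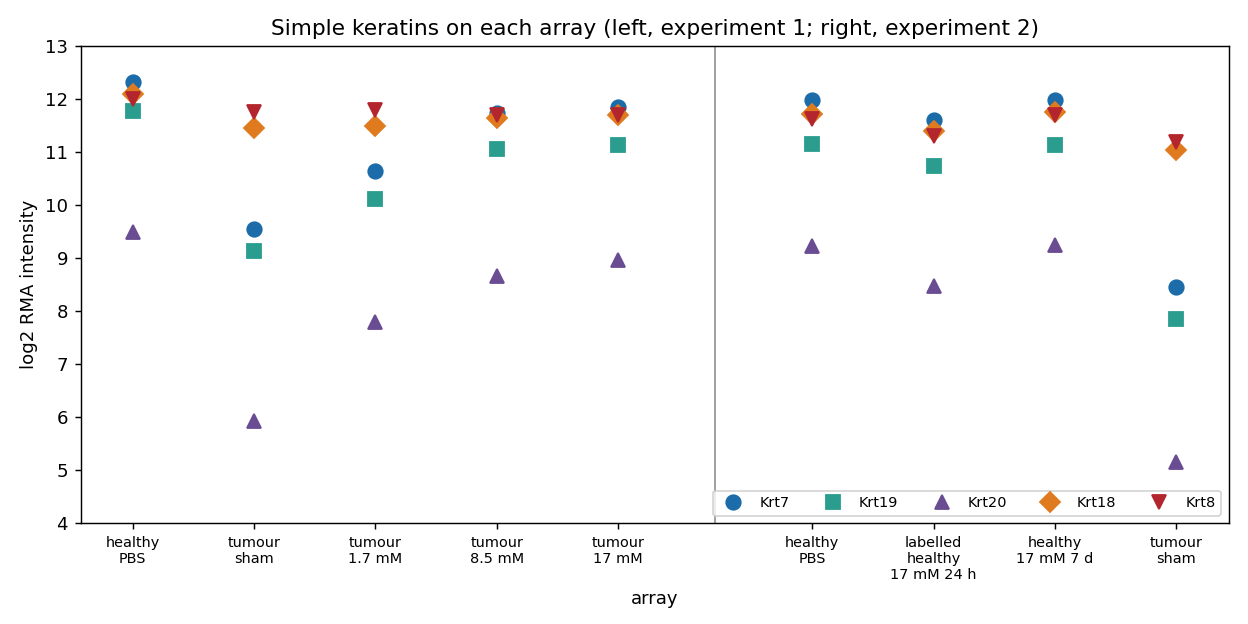
Log2 RMA intensity of the 5 keratins on each array, with experiment 1 at the left and experiment 2 at the right of the grey line; each point is 1 array. Krt20 drops from 9.50 to 5.93 and Krt7 from 12.32 to 9.55 between healthy and sham tumour of experiment 1, while Krt8 goes from 12.00 to 11.75.

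The uroplakins, the pan-epithelial genes and most of the listed urothelial transcription factors also fell, beside 28.6% of all genes called lower. All 5 uroplakins fell (median log2 difference -3.51), among them Upk3b (-4.36), Upk3a (-3.78), Upk1b (-3.51) and Upk2 (-3.43), which build the plaque of the umbrella cell surface. All 8 pan-epithelial genes fell (median -3.18), including Esrp1, a splicing factor of epithelia (-3.68), Prss8, a membrane protease (-3.52), the tight junction claudin Cldn7 (-3.38) and the adhesion molecule Epcam (-3.29). Of 10 urothelial transcription factors 8 fell and 1 rose (median -2.56). Ehf, an ETS factor, fell by 4.32, Pparg fell by 3.88 and Grhl3 fell by 3.88, while Tfap2a, an AP-2 factor, rose by 2.22. Klf5, a zinc finger factor of epithelia, read -0.29 (adjusted p = 0.0809).

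Of 11 measured genes for proteins that anchor keratin filaments 9 fell and 1 rose (median -0.83). Desmoplakin (Dsp), which ties keratins to desmosomes, fell by 3.39, and so did the cornified envelope plakins Evpl (-2.08) and Ppl (-1.69) and the keratin-binding scaffold Fam83h (-1.60). The cytolinker gene Plec rose by 0.61. Among the 4 other intermediate filament genes above the filter 2 rose and 2 fell (median 0.23, against -0.005 over all genes tested). Vim, the mesenchymal filament, rose by 1.515 and Lmna, a nuclear lamin, by 1.495, whereas the muscle filament genes Synm and Des fell by 1.87 and 1.05.

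Within the keratin family, 41 keratin genes had a probe set and 21 lay above the filter. Of the 16 that are not simple keratins of this group, 8 fell and 2 rose (62.5% called, against 57.2% of all genes), with a median of -0.39. The decreases were largest for Krt5 of the basal layer (-3.16, SE 0.27, adjusted p = 0.00476), Krt15 (-2.26, SE 0.19) and Krt4, a suprabasal mucosal keratin (-1.78, SE 0.09). The increases were Krt14, the basal type I keratin (5.52, SE 0.11, adjusted p = 0.0024), and Krt6a, a keratin of wounded and squamous epithelium (2.28, SE 0.38, adjusted p = 0.0181). Of the basal and squamous list 2 of 5 tested members fell and 2 rose, and Krt16 read 1.24 (adjusted p = 0.072). All 3 tested suprabasal keratins fell (Krt4, Krt1 at -1.04 and Krt10 at -0.91). Both chromosomes held rising and falling keratins, with 1 up and 5 down of 9 on chromosome 15 and 1 up and 3 down of 7 on chromosome 11. On the full ordering Krt20 was the lowest of the 21 keratins, Krt7 and Krt19 stood beside Krt5, and Krt8 stood nearest 0 of the 5 simple keratins.

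**Figure D2:**
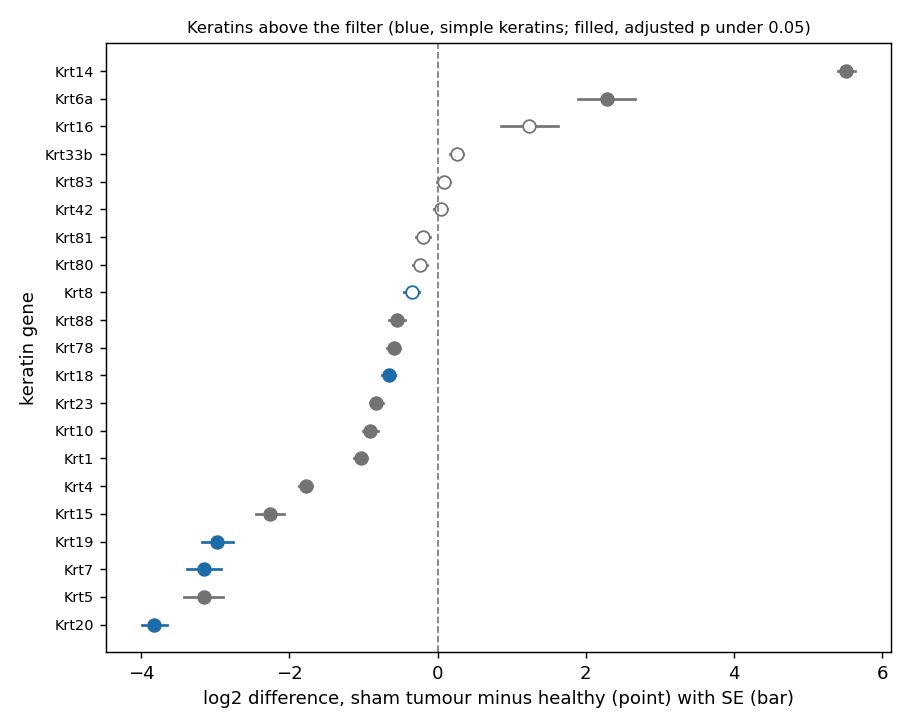
Fitted log2 difference of the 21 keratins above the filter, sham tumour minus healthy (points) with its SE (bars); blue points are the 5 simple keratins, grey points the 16 others, and filled points passed adjusted p under 0.05. Krt20 lies at -3.83 and Krt14 at 5.52.

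Markers of other tissues that hold simple keratins moved between the same arrays. The kidney tubule list (7 of 8 genes measured) had a summed signal of 10.10 and 9.82 log2 on the healthy PBS arrays and between 6.94 and 7.17 on the tumour arrays and the 7 d array. The array labelled 24 h was at 8.17. The sham tumour of experiment 2 minus the 7 d array was -3.53 log2 in Krt7, -3.28 in Krt19, -4.09 in Krt20, -0.72 in Krt18 and -0.51 in Krt8, a comparison of 1 array with 1 array that was added after the data were seen. Mesothelial genes had 4 of 5 tested members down and 1 up, Msln (3.43). Their summed signal was 9.69 and 8.72 log2 on the healthy PBS arrays, 9.51 and 9.36 on the sham tumours and 7.22 on the 7 d array. The sums of the sham tumours come mostly from Msln, which alone read 9.31 and 9.19 there. The median of the mesothelial list was 5.95 and 5.69 log2 on the healthy PBS arrays and 4.06 and 3.68 on the sham tumours. No intestinal gene passed (3 tested, summed signal 5.90 to 6.70 on all arrays). All 5 smooth muscle genes tested fell, all 3 proliferation genes and all 4 leukocyte genes rose, and the part of any of these tissues in the keratin differences was not tested.

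After 17 mM alpha1-oleate the tumour bladder carried more Krt7, Krt19 and Krt20 than the sham tumours, at 72.2%, 64.2% and 69.3% of the healthy signal, while Krt8 and Krt18 did not pass the test. Against the sham tumours 3 of 5 members rose and none fell, beside 26.3% of all genes called (15.7% higher). The median of the members was 2.17 and that of all genes -0.045. Fitted differences use both sham arrays with the experiment as a block, and within experiment 1 alone they are somewhat smaller, as given below.

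Krt20 read 8.97 log2 at 17 mM against 5.93 in the sham tumour of experiment 1, which is 8.22 times the sham signal and 69.3% of the healthy signal. Its fitted rise was 3.17 (SE 0.22, adjusted p = 0.0159), above 99.3% of genes. Krt7 read 11.85 against 9.55, a 4.92-fold gain that reached 72.2% of healthy, with a fitted rise of 2.49 (SE 0.31, adjusted p = 0.0244). Krt19 read 11.14 against 9.14, a 4-fold gain that reached 64.2% of healthy, with a fitted rise of 2.17 (SE 0.27, adjusted p = 0.0252). For all 3 genes the 17 mM value lay between the sham tumour and the healthy array.

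Krt18 read 11.70 at 17 mM against 11.46 in the sham tumour, and its difference of 0.25 (SE 0.12, 95% interval -0.11 to 0.61, adjusted p = 0.205) did not pass. Krt8 read 11.70 against 11.75, with a fitted difference of 0.00 (SE 0.14, 95% interval -0.42 to 0.42, adjusted p = 1). A gain above 0.61 in Krt18 or above 0.42 in Krt8 lies outside these intervals, which do not meet those of Krt7 (1.56 to 3.43), Krt19 (1.33 to 3.00) and Krt20 (2.49 to 3.84).

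At 8.5 mM the same 3 members rose and none fell, beside 15.6% of all genes called (11.0% higher). Krt20 read 8.66 log2 (fitted rise 2.86, SE 0.22, adjusted p = 0.0253), Krt7 11.74 (2.38, SE 0.31, adjusted p = 0.0349) and Krt19 11.06 (2.09, SE 0.27, adjusted p = 0.0358). They had reached 55.9%, 66.9% and 60.7% of the healthy signal. Krt18 read 11.64 (0.19, adjusted p = 0.329) and Krt8 11.70 (0.00, adjusted p = 1).

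At 1.7 mM no member passed, and limma called 0% of all genes (0 of 11969 adjusted, 1595 at unadjusted p under 0.05). Krt20 read 7.80 log2, 3.66 times the sham signal, with a fitted difference of 1.997 (SE 0.22, 95% interval 1.32 to 2.67, adjusted p = 0.251) that exceeded 99.8% of genes. Without the experiment block the adjusted p of Krt20 was 0.0137, so the call at this dose depends on the block. Krt7 read 10.64 (1.28, SE 0.31, adjusted p = 0.314) and Krt19 read 10.12 (1.15, SE 0.27, adjusted p = 0.313), 2.13 and 1.97 times the sham signal. Krt18 and Krt8 read 11.49 and 11.79, within 0.04 log2 of the sham tumour.

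Expressed as a share of the log2 gap between sham tumour and healthy bladder of experiment 1, the 1.7 mM array had regained 52.4% of the gap in Krt20, 39.4% in Krt7 and 37.1% in Krt19. On the same array the 5 uroplakins had regained 15.5% to 26.2% (median 21.3%), the 8 pan-epithelial genes a median of 18.3% (highest 36.8%, Cldn4), and the 1792 genes that were at least 2-fold lower in the tumour a median of 20.2%. Among the keratin-anchoring genes with such a gap Ppl stood out at 125%, above its healthy level, with the median of the 5 at 20.4%. At 8.5 mM the shares were 76.5%, 79.1% and 72.7% for Krt20, Krt7 and Krt19, beside a median of 71.0% for the uroplakins and 60.1% for all such genes. At 17 mM they were 85.2%, 83.0% and 75.8%, beside 76.3% and 71.3%. These shares come from single arrays that use the same sham and healthy array, and the differences between the keratins and the other genes were not tested.

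**Figure D3:**
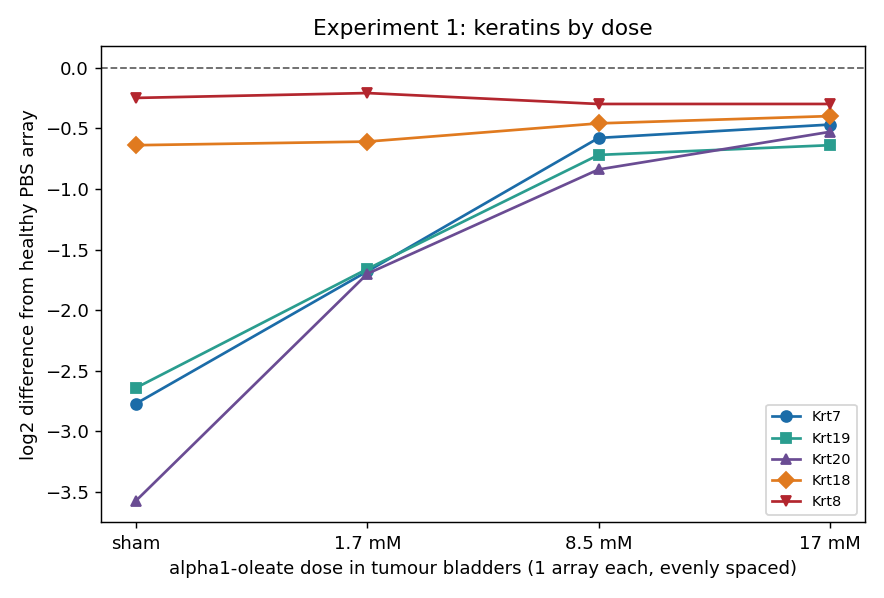
Log2 difference of each keratin from the healthy PBS array of experiment 1 (dashed line at 0), against the alpha1-oleate dose in tumour bladders, 1 array per point with doses evenly spaced. Krt7, Krt19 and Krt20 climb from between -3.57 and -2.64 in the sham tumour to between -0.64 and -0.47 at 17 mM, while Krt8 stays between -0.30 and -0.21.

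Across the tumour series the dose slope, fitted in log2 per mM, rose in 2 of 5 members beside 30.9% of all genes called. It was 0.14 in Krt7 (SE 0.04, adjusted p = 0.0428), 0.12 in Krt19 (SE 0.03, adjusted p = 0.046) and 0.16 in Krt20 (SE 0.05, adjusted p = 0.0522). In Krt18 it was 0.015 (adjusted p = 0.14) and in Krt8 -0.002 (adjusted p = 0.852). The gains per mM were larger at the low doses, and with doses coded by their order Krt20 passed (adjusted p = 0.00609). With the block, leaving out any one of the 4 PBS arrays took the number of members called for the slope to 0. Between 17 mM and 1.7 mM directly no member passed, beside 5.95% of all genes, with Krt20 at 1.17 (SE 0.24, adjusted p = 0.0776), Krt7 at 1.21 (adjusted p = 0.115) and Krt19 at 1.02 (adjusted p = 0.124).

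Compared with the healthy bladders, none of the 5 keratins was called at 17 mM, beside 2.97% of all genes, or at 8.5 mM, beside 11.3%. All 5 read lower than healthy at both doses. At 17 mM the differences were -0.81 for Krt19 (95% interval -1.64 to 0.03, adjusted p = 0.166), -0.66 for Krt7 (-1.60 to 0.27, adjusted p = 0.254), -0.66 for Krt20 (-1.33 to 0.02, adjusted p = 0.165), -0.41 for Krt18 (adjusted p = 0.134) and -0.35 for Krt8 (adjusted p = 0.204). A deficit of more than 1 log2 unit therefore lies within the interval of Krt7, Krt19 and Krt20. At 8.5 mM the differences ran from -0.97 in Krt20 (adjusted p = 0.0794) to -0.35 in Krt8 (adjusted p = 0.177). At 1.7 mM 4 of 5 members were lower than healthy, beside 39.8% of all genes, with Krt7 at -1.87, Krt19 at -1.83, Krt20 at -1.83 and Krt18 at -0.62. Krt8 read -0.26 (adjusted p = 0.219). The number called at 1.7 mM was 2 without the block (Krt7 and Krt20), and 0 when the healthy PBS array of either experiment was also left out.

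**Figure D4:**
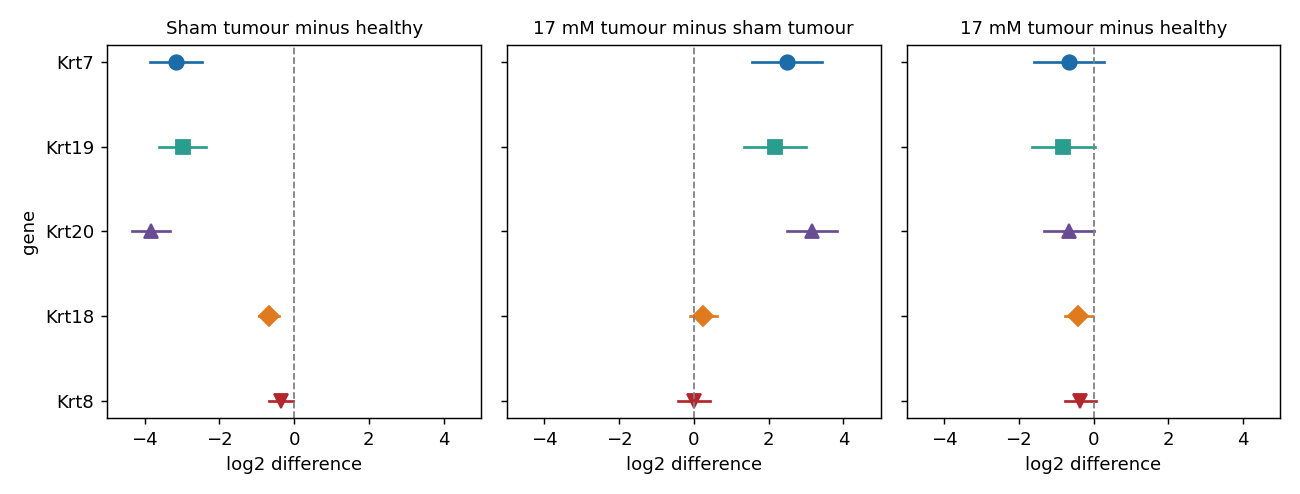
Fitted log2 differences of the 5 keratins (points) with 95% intervals (lines) for sham tumour minus healthy, 17 mM tumour minus sham tumour, and 17 mM tumour minus healthy. Krt7, Krt19 and Krt20 lie at -3.16, -2.98 and -3.83 in the first panel and at 2.49, 2.17 and 3.17 in the second, and Krt8 lies at -0.35 and 0.00.

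The uroplakins, the pan-epithelial genes and most of the listed transcription factors also rose at the upper doses. At 17 mM all 5 uroplakins (median 2.76) and all 8 pan-epithelial genes (median 2.17) rose, among them Upk3b (3.22), Upk3a (3.06), Esrp1 (2.56) and Prss8 (2.47). Of the 10 transcription factors 7 rose and 1 fell (median 1.75), with Ehf at 3.22, Pparg at 3.08 and Tfap2a at -1.93, while Klf5 read -0.002 (adjusted p = 0.99). Of the 11 keratin-anchoring genes 5 rose (median 0.59), led by Dsp (2.61), Evpl (1.46), Ppl (1.13) and Pkp2, a desmosomal plakophilin (0.86). Of the 16 other keratins 4 rose and 2 fell (37.5% called, against 26.3% of all genes), with Krt5 at 2.29, Krt15 at 1.77, Krt4 at 1.24 and Krt14 at -1.24. At 8.5 mM 4 of these keratins rose and none fell (25% called, against 15.6% of all genes). The uroplakins (5 of 5), pan-epithelial genes (8 of 8) and transcription factors (7 up, 1 down) had the same counts as at 17 mM. At 1.7 mM none passed.

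Liver transcripts were present on the same treated arrays. The liver list (7 of 8 genes measured, 5 tested) had 5 members up at 17 mM and 5 up at 8.5 mM against sham tumour, and none called at 1.7 mM (median 0.10). Its summed signal in experiment 1 was 9.19 log2 in healthy, 6.92 in sham tumour, 7.03 at 1.7 mM, 9.75 at 8.5 mM and 10.89 at 17 mM. In experiment 2 it was 9.05 in healthy, 6.63 in sham tumour, 10.06 on the array labelled 24 h and 8.66 on the 7 d array. Its members differed in pattern. Alb read 4.57 in healthy, 4.04 in sham tumour, 3.87, 8.83 and 10.15 at 1.7, 8.5 and 17 mM. Ttr read 8.91 in healthy, 4.84 in sham tumour, and 5.23, 7.56 and 8.16 at the 3 doses, and it fell in sham tumour against healthy (-4.19), while Apob lay between 3.65 and 4.10 on all 9 arrays. At 17 mM all 5 smooth muscle genes rose (median 1.68), all 3 proliferation genes fell (median -1.59), and 2 of 4 leukocyte genes fell. The part of liver, muscle, proliferating and leukocyte transcripts in the keratin gains was not tested.

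In tumour-free bladder 7 d after 17 mM alpha1-oleate the 5 keratins read within 0.06 log2 of the healthy PBS array of experiment 2. Krt7 read 11.98 against 11.99, Krt19 11.13 against 11.16, Krt20 9.24 against 9.23, Krt18 11.75 against 11.71 and Krt8 11.69 against 11.63. No member passed, and limma called 0% of all genes (1096 at unadjusted p under 0.05). The fitted differences, which use the healthy arrays of both experiments, ran from 0.05 in Krt18 (SE 0.12, adjusted p = 0.899) to 0.18 in Krt7 (SE 0.31, adjusted p = 0.857). Their 95% intervals were wider than the agreement of these single arrays, at -0.75 to 1.12 in Krt7, -0.7 to 0.97 in Krt19 and -0.54 to 0.81 in Krt20.

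On the array labelled healthy, 17 mM, 24 h all 5 keratins read lower than on the healthy PBS array. Krt20 read 8.48 against 9.23, which is 59.5% of the healthy signal. Krt19 read 10.73 (74.2%), Krt7 11.61 (76.8%), Krt8 11.30 (79.6%) and Krt18 11.39 (80.1%). None passed, and limma called 0% of all genes here too (2503 at unadjusted p under 0.05), with Krt20 at -0.62 (SE 0.22, adjusted p = 0.256), Krt18 at -0.31 (adjusted p = 0.27) and Krt8 at -0.28 (adjusted p = 0.346). The uroplakins read lower as well (median -0.50, none called), while Krt14 read 3.68 (adjusted p = 0.0568) and Krt6a 2.30 (adjusted p = 0.174). These values stand beside the proliferation and leukocyte transcripts of that array, whose part was not tested. Against the healthy PBS array of experiment 1, through the block, the values were 0.39 in Krt7, 0.24 in Krt19 and -0.24 in Krt20. In that fit the sham tumours alone set the offset between the experiments (9.55 and 8.45 log2 in Krt7). The sign in Krt7 and Krt19 thus depends on the arrays that set this offset. As read, Krt7 at 11.61 lay below the healthy arrays of both experiments (12.32 and 11.99), and so did Krt19 at 10.73 (11.78 and 11.16).

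Against the sham tumours the array labelled 24 h had 3 of 5 members higher, beside 30.6% of all genes called. Krt20 was higher by 3.20 (SE 0.22, adjusted p = 0.0142), Krt7 by 2.97 (SE 0.31, adjusted p = 0.0172) and Krt19 by 2.71 (SE 0.27, adjusted p = 0.0168). Krt18 read 0.35 (adjusted p = 0.111) and Krt8 0.07 (adjusted p = 0.726).

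The 17 mM effect in tumour bladder minus that in tumour-free bladder was fitted as a difference of differences. Its tumour part starts from the lowered sham level of Krt7, Krt19 and Krt20, and its tumour-free part from the healthy level. A positive value in genes that fell in sham tumours therefore cannot by itself show a different response to the dose. With the array labelled 24 h, Krt7, Krt19 and Krt20 passed, beside 19.1% of all genes, and so did 5 of 5 uroplakins and 8 of 8 pan-epithelial genes. With the 7 d array no member passed, beside 3.20% of all genes, and the adjusted p was 0.0506 in Krt20, 0.0837 in Krt7 and 0.0845 in Krt19.

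Over the 7 arrays other than healthy PBS, each taken as its difference from the healthy array of its experiment, Krt7 and Krt19 followed each other most closely (Pearson r = 0.999, root mean square difference 0.13 log2), although 1 is type II on chromosome 15 and the other type I on chromosome 11. Krt20 correlated with Krt7 at 0.991 and with Krt19 at 0.989. Krt8 and Krt18, the neighbouring pair, correlated at 0.761. Krt18 correlated more closely with Krt19 (0.836), Krt7 (0.811) and Krt20 (0.805). Krt8 correlated with Krt19 at 0.557, with Krt20 at 0.554 and with Krt7 at 0.531. These coefficients describe 7 arrays that share 2 healthy controls and hold 2 sham tumours, so a few widely spaced arrays set most of their size.

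Of all genes above the filter the 3 most like Krt7 were Krt19, Scarb2, a lysosomal membrane receptor (0.999), and Aqp3, a water and glycerol channel (0.998). Those most like Krt19 were Krt7, Mpzl2, an epithelial adhesion protein (0.998), and Perp, a desmosome protein (0.997). For Krt20 they were H6pd (0.997), Atp10d (0.997) and Pink1 (0.996), which differed from Krt20 by a root mean square of 0.91 to 1.55 log2. For Krt18 they were Gpa33 (0.998), Babam2 (0.997) and Mrpl44 (0.996), and for Krt8 Plekhm2 (0.971), Lats1 (0.967) and Tmem203 (0.963). The likeness of Krt8 rests on differences of at most 0.45 log2.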

How the data were processed

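Total RNA of pulverised bladders was labelled and hybridised to an Affymetrix mouse array, per the labels' protocols. The deposited log2 values were made by the authors with RMA, and the submitters' processing notes also name version 4.0.1.36 of the Transcriptome Analysis Console. The genome build is not given in the sources used here. Sorted values differed by 0.022 log2 from their mean within an experiment and by 0.329 between experiments, and the experiment was kept as a block in the fit.

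Of 45077 probe sets, 28898 named 1 gene, 551 several, 15588 none and 40 were controls; 28689 were matched by Entrez number. The probe set with the highest mean stood for a gene (17097 genes), and the lowest 30% of gene means (below 4.16 log2) were left out. The fit was limma 3.58.1 in R 4.3.3 (lmFit, eBayes) over all 11969 genes with 7 group means and the experiment as a block, and adjusted p under 0.05 was called. It had 1 residual and 2.23 prior degrees of freedom (3 residual for the dose slope). The experiment number in the labels marks a shared experiment, and the same-numbered deviations of the PBS arrays from their group means correlated at 0.647. This value also carries any offset between the experiments, whose sorted values differed by 0.329 log2, so it does not show a pairing of animals. Figures were drawn in Python 3.11.15 with matplotlib 3.10.9.

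The members and lists were chosen with earlier results of these data known. Named genes are the members, the 3 genes most correlated with each, up to 4 called genes per list by size, and the 3 other keratins with the largest rise and the 3 with the largest fall. Krt8-ps, Klf5, Krt16, Plec, Tfap2a, Cldn4, Alb, Ttr, Apob, Mki67 and S100a8 were singled out after their values were seen.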

Additional observations from a re-analysis of the deposited data

Results flagged for a closer look

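The effect of 17 mM alpha1-oleate differed between tumour bladder and the array labelled healthy, 24 h in 3 of the 5 keratins, beside 19.1% of all genes. This difference of differences was added after the data were seen. These keratins start from the lowered sham level in the tumours and from the healthy level in the tumour-free bladder, so it cannot by itself show a different response. The tumour effect exceeded the other by 3.79 log2 in Krt20 (SE 0.33, adjusted p = 0.0264), 2.68 in Krt7 (SE 0.46, adjusted p = 0.0471) and 2.43 in Krt19 (SE 0.41, adjusted p = 0.046), by limma over all genes with 1 array in each treated group. With the 7 d array in place of the one labelled 24 h no member passed, beside 3.2% of all genes. The labels do not give the number of instillations of the tumour-free bladders. The array labelled 24 h carried more proliferation and leukocyte transcripts than the healthy PBS array of its experiment, and their part was not tested.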

How the results depend on the processing

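Krt7, Krt19 and Krt20 kept their direction and their calls in sham tumour against healthy, 17 mM against sham and 8.5 mM against sham under no block, joint quantile normalization, both other filters, the mean of probe sets, every probe set tested and a variance trend. No member's called value changed sign under any alternative. The number of members called changed as follows. Without the experiment block it was 1 at 1.7 mM against sham (0 with the block; Krt20) and 2 at 1.7 mM against healthy (4 with it), and Krt18 lost its call in sham tumour against healthy. With all arrays quantile-normalized together it was 1 at 8.5 mM against healthy (Krt20, adjusted p = 0.0366) and 2 at 17 mM against 1.7 mM (Krt7 and Krt20), from 0 each. A variance trend gave 1 at 8.5 mM against healthy (Krt18) and 4 for the dose slope (from 2), and no expression filter gave 0 for the slope. Krt20 passed for the slope with joint normalization (adjusted p = 0.0472), the filter at the lowest 50% (0.0493) and no block (0.0411). Without the block Krt19 lost its call for the slope (adjusted p = 0.0635). Krt8 passed in sham tumour against healthy with a variance trend (adjusted p = 0.033) and with the mean of its probe sets (0.0426). The cause of these changes was not tested.

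Leaving out 1 PBS array leaves no residual degree of freedom with the block, except for the slope. The slope was therefore fitted with and without the block, and its range below covers both. The other fits were run without the block. The members called then numbered 3 in sham tumour against healthy, 3 at 17 mM and at 8.5 mM against sham, 0 to 3 at 1.7 mM against sham, 0 to 3 at 1.7 mM against healthy, 2 to 3 for the array labelled 24 h against sham and 0 to 3 for the slope, and 0 in the other 5 comparisons.

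The background counts moved more. Without the block, calls over all genes went from 6852 to 3172 in sham tumour against healthy, from 3147 to 1217 at 17 mM and 1872 to 945 at 8.5 mM against sham, from 0 to 36 at 1.7 mM against sham, from 4758 to 1945 at 1.7 mM against healthy, from 3657 to 1391 for the array labelled 24 h against sham and from 3698 to 1125 for the slope. Joint normalization gave 3275 at 8.5 mM against sham. Over the alternatives they ran from 202 to 2201 at 17 mM against healthy (main 356), from 804 to 3215 at 8.5 mM against healthy (1351), from 0 to 2538 at 17 mM against 1.7 mM (712), up to 788 at 24 h and up to 28 at 7 d against healthy (0 each). The number of arrays limits the precision.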
